A study of Axonopus compressus with 6 samples.

Results

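The features described here are 36 assembled root transcripts of Axonopus compressus (carpetgrass, a creeping warm-season turf grass) that sit in 16 assembly components, each of which holds at least 1 feature that rose and at least 1 that fell in aluminium-treated roots. They were chosen by their RPKM (reads scaled by feature length and library total) from 108674 features in all. A riser had a mean of at least 5 RPKM in aluminium libraries and a lowest aluminium library at least 1.5 times the highest control library. A faller had a mean of at least 5 RPKM in control libraries and a lowest control library at least 1.5 times the highest aluminium library. The rule left 19 risers and 17 fallers. Across all features, 5.98% of those with an aluminium mean of at least 5 RPKM met the riser limits and 2.94% of those with a control mean of at least 5 RPKM met the faller limits. Since the rule used the control and aluminium values, every difference between the groups is given below as a description and not as a test.

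RNA-seq was done on whole roots of seedlings of accession A58, given as the genotype of every library. Control seedlings (CK, 3 libraries) received 0 μM aluminium and treated seedlings (Al, 3 libraries) 100 μM aluminium for 24 h. Whether the 3 libraries of a group stem from different plants, and how many plants were pooled, is not stated in the labels. Depth, inferred from the steps of the RPKM values, was 32544238 to 33216298 reads per control library and 33576684 to 35204519 reads per aluminium library. On the second principal component of the whole table (16.2% of the variance), aluminium library 2 scored 54.9 and the other aluminium libraries -28.6 and -23.2.

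Aluminium becomes soluble in acid soil and its ions stop the elongation of root tips, and many plants respond by releasing organic acids that bind the ion. An assembler that works without a genome, such as Trinity, whose naming the row identifiers follow, first sorts reads into components that share sequence, and then splits a component into gene-level features, called sisters here. Sisters can be copies of a gene from the chromosome sets of a polyploid, alleles, members of a gene family, or fragments of a single transcript, and polyploid forms of carpetgrass are known. The table pairs no feature with a gene name, and what the 36 features encode is not known here. Identifiers are given without their common prefix TRINITY_, as DN number, component number c and feature number g. The sources used here do not give how reads that match several sisters were counted, so the division of reads between close sisters is uncertain, and its part in the opposite changes was not tested.

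Few components held opposite sisters under this rule. The table held 1396 risers and 674 fallers in all. The 19 rising sisters were 1.36% of all risers and the 17 falling sisters 2.52% of all fallers. There were 5117 components with at least 2 features at 5 RPKM or more in either group. Of these, 16 (0.313%) held opposite members, 113 held at least 2 risers and no faller, and 37 held at least 2 fallers and no riser. Counted another way, 9.64% of the 166 components with at least 2 risers or fallers held both. Risers and fallers were themselves only 5.98% and 2.94% of the features at the minimum level. Whether sisters were opposite less often than features of unrelated components was not tested.

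The members changed about as much as risers and fallers in general. Risers were 1.68-fold to 3.36-fold higher in aluminium libraries, as ratios of mean RPKM, with a median of 2.15-fold against 2.07-fold for all 1396 risers. Fallers were 1.74-fold to 6.24-fold lower, with a median of 2.07-fold against 1.93-fold for all 674 fallers. Of the 19 risers 14 changed by at least 2-fold, and of the 17 fallers 12 did. The median control level of the members was lower than in general, at 5.18 RPKM for risers against 6.83 RPKM for all risers. For fallers it was 9.05 RPKM against 15.6 RPKM for all fallers. The median aluminium level of the members was 13.8 RPKM for risers and 3.75 RPKM for fallers. All 36 passed limma's test over the whole table at an adjusted p under 0.05, as did 35.4% of the 50679 features tested; the rule had already required a gap between the groups, so this count adds nothing.

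**Figure D1:**
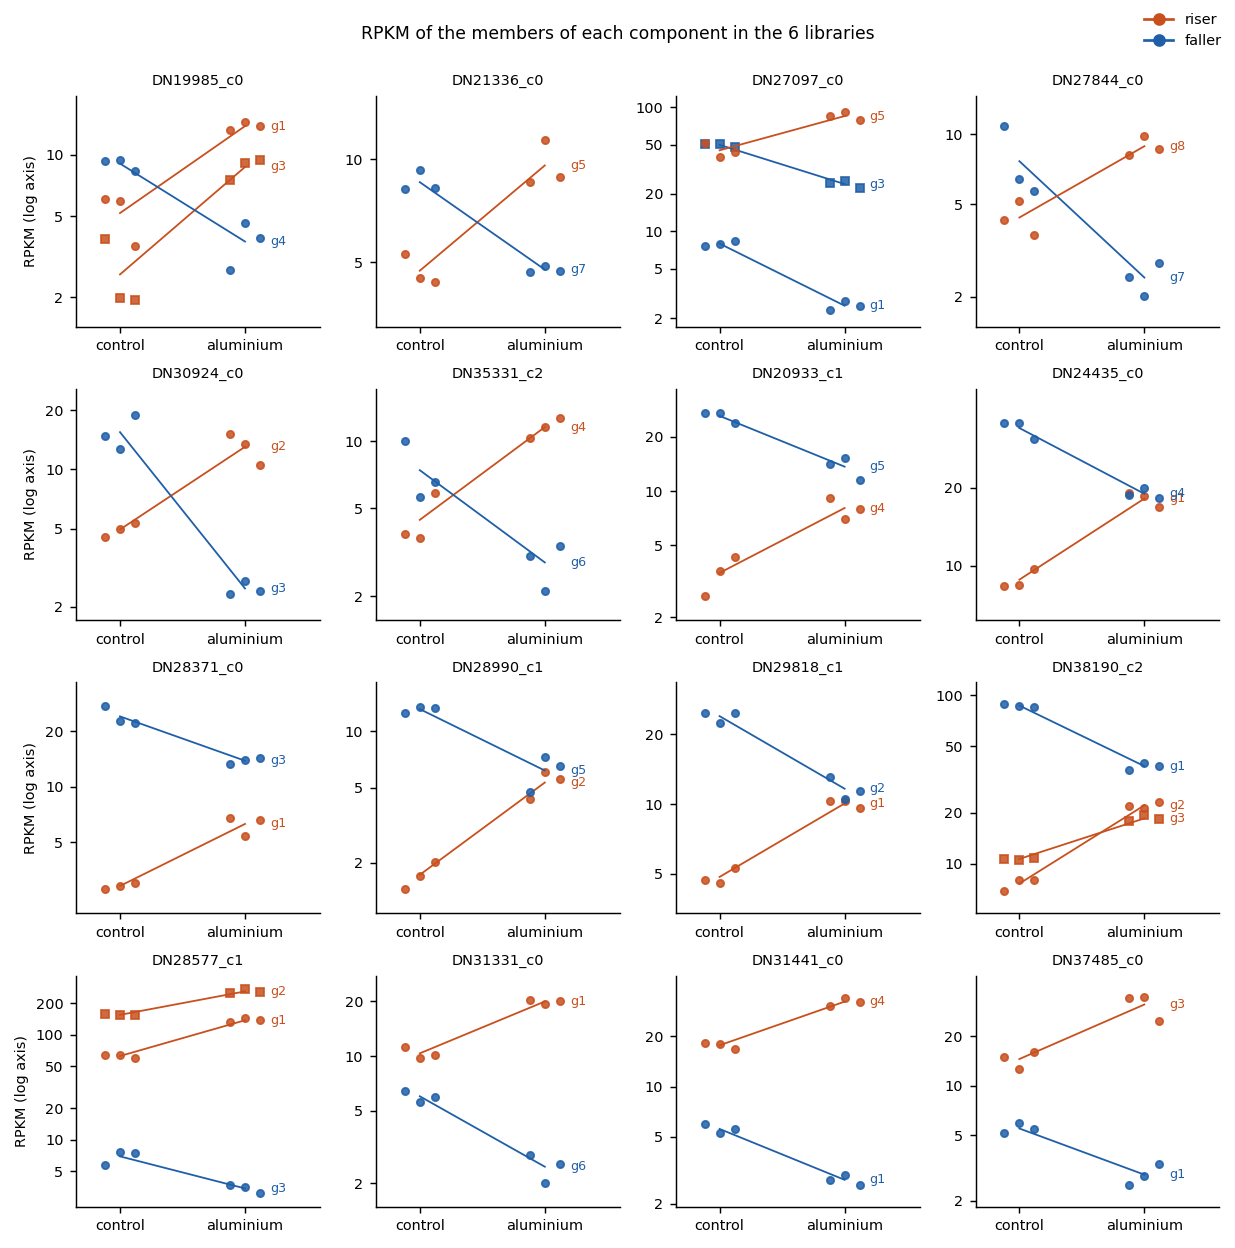
RPKM (log axis) of the 36 members in the 3 control and 3 aluminium libraries, with 1 panel for each of the 16 components; points are libraries, lines join group means, squares mark the second riser or second faller of a component. In every panel a riser and a faller move in opposite directions, and in the first 6 panels their lines cross.

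The components fell into 3 kinds by the level, on the RPKM scale, of their leading member, that is, the member with the highest mean. In 6 components a faller led in control and a riser in aluminium libraries, in 6 a faller led in both groups, and in 4 a riser led in both groups. In reads, where long sisters weigh more, some components fall into another kind. The faller DN27097_c0_g3 then led the riser DN27097_c0_g5 in every library. The riser DN38190_c2_g3 then passed the faller DN38190_c2_g1 in aluminium libraries, at 1205 to 1382 against 899 to 1038 reads.

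The widest crossing was in DN30924_c0. The riser DN30924_c0_g2 had 4.53, 4.97 and 5.33 RPKM in control libraries 1 to 3 and 15.1, 13.5 and 10.5 RPKM in aluminium libraries 1 to 3. The faller DN30924_c0_g3 had 14.7, 12.7 and 19.0 RPKM in control libraries and 2.31, 2.71 and 2.41 RPKM under aluminium. The groups were far apart in both sisters. Their means went from 4.94 ± 0.40 to 13.0 ± 2.29 RPKM and from 15.5 ± 3.22 to 2.48 ± 0.21 RPKM (SD, n = 3 each). The riser made up 24.5 ± 3.27% of the summed RPKM of the pair in control libraries and 83.8 ± 2.67% under aluminium (SD, n = 3 each), a gain of 59.2 percentage points and the largest of the 16 components. The 6.24-fold fall of DN30924_c0_g3 was the largest among the 17 fallers.

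In DN19985_c0 a pair of risers crossed a single faller. DN19985_c0_g1 had 6.04, 5.94 and 3.55 RPKM in control libraries and 13.2, 14.4 and 13.8 RPKM under aluminium. DN19985_c0_g3 had 3.84, 1.98 and 1.94 RPKM and then 7.53, 9.13 and 9.47 RPKM, a ratio of means of 3.36, the largest rise among the members. Its control values rest on few reads, 46, 24 and 23 in libraries 1 to 3. DN19985_c0_g4 fell from 9.34, 9.45 and 8.36 RPKM to 2.71, 4.62 and 3.92 RPKM. Control library 1 was the highest of its group in both risers without being the highest in the faller. The risers together held 45.6 ± 5.88% of the members' RPKM in control libraries and 85.9 ± 2.43% under aluminium (SD, n = 3 each).

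DN27097_c0 was the most abundant of the crossing components and the only 1 of the 16 with a pair of fallers. Its riser DN27097_c0_g5 had 51.6, 39.9 and 43.6 RPKM in control libraries and 84.5, 92.0 and 78.5 RPKM under aluminium. Its main faller DN27097_c0_g3 had 50.2, 50.8 and 48.3 RPKM and then 24.7, 25.3 and 22.2 RPKM. In control library 1 the riser was already above that faller, so the change of leader did not hold in every library here, as it did in the other 5 crossing components. The second faller, DN27097_c0_g1, was 3.17-fold lower in aluminium, from 7.97 ± 0.36 to 2.52 ± 0.23 RPKM (SD, n = 3 each).

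DN21336_c0, DN35331_c2 and DN27844_c0 crossed at lower levels. The riser DN21336_c0_g5 had 5.30, 4.50 and 4.38 RPKM in control libraries and 8.56, 11.4 and 8.85 RPKM under aluminium, while DN21336_c0_g7 fell from 8.19, 9.31 and 8.22 to 4.69, 4.88 and 4.72 RPKM. In aluminium library 2 the riser stood above the other libraries, while the 3 aluminium values of the faller lay close together. DN35331_c2_g4 had 3.80, 3.65 and 5.82 RPKM in control libraries and 10.4, 11.6 and 12.7 RPKM in aluminium libraries. Its sister DN35331_c2_g6 had 10.04, 5.60 and 6.57 RPKM and then 3.05, 2.11 and 3.37 RPKM. These were 40 to 71 reads per control library and 16 to 25 per aluminium library, and 16 was the fewest of any member in any library. In DN27844_c0 the faller g7 went from 7.65 ± 2.79 to 2.41 ± 0.40 RPKM and the riser g8 from 4.38 ± 0.75 to 8.87 ± 0.89 RPKM (SD, n = 3 each). Control library 1 stood apart in both of these short fallers, with 10.04 RPKM in DN35331_c2_g6 and 10.8 RPKM in DN27844_c0_g7.

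In the next 6 components the faller stayed the member with the highest mean, and the levels of riser and faller lay nearer to each other in aluminium libraries. The rule fixes this narrowing wherever a faller stays above a riser. Features of these components outside the rule are left aside here. DN38190_c2 had close replicate values on both sides. Its faller DN38190_c2_g1 had 88.6, 86.9 and 85.7 RPKM in control libraries and 36.1, 39.8 and 38.0 RPKM under aluminium. Its riser DN38190_c2_g2 had 6.83, 7.99 and 7.99 RPKM and then 21.9, 21.5 and 23.2 RPKM, and the second riser DN38190_c2_g3 had 10.7, 10.5 and 10.8 RPKM and then 17.9, 19.5 and 18.3 RPKM. Both sides of this component were at least 2.15 times apart between the nearest libraries when its stronger riser is taken, so it was the single component left when the required ratio was set to 2. The risers together went from 17.3 ± 0.77% to 51.8 ± 0.89% of the members' RPKM (SD, n = 3 each), while the faller remained the highest single member.

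DN24435_c0 ended with its riser and faller nearly level. The riser DN24435_c0_g1 had 8.31, 8.41 and 9.74 RPKM in control libraries and 19.0, 18.6 and 16.9 RPKM under aluminium, and the faller DN24435_c0_g4 had 35.8, 35.6 and 30.9 RPKM and then 18.7, 19.9 and 18.3 RPKM. Their aluminium values overlapped. DN29818_c1, a component of 2 features, narrowed in the same way: DN29818_c1_g1 had 4.70, 4.55 and 5.29 RPKM in control libraries and 10.4, 10.3 and 9.58 RPKM in aluminium libraries. DN29818_c1_g2 fell from 24.7, 22.5 and 24.9 RPKM to 13.0, 10.6 and 11.4 RPKM, where each library still lay above every aluminium value of its sister.

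DN28990_c1_g2 was the weakest riser in control, at 1.45, 1.70 and 2.02 RPKM, and had 4.36, 6.05 and 5.58 RPKM in aluminium libraries. Its sister DN28990_c1_g5 had 12.6, 13.4 and 13.3 RPKM and then 4.76, 7.25 and 6.50 RPKM. In aluminium both sisters were lowest in library 1 and highest in library 2. Without aluminium library 2 the mean of the riser drops under 5 RPKM, and DN28990_c1 is then the only 1 of the 16 components that no longer meets the rule. In DN20933_c1 the riser g4 went from 3.52 ± 0.87 to 8.05 ± 1.11 RPKM and the faller g5 from 26.1 ± 1.98 to 13.7 ± 1.91 RPKM. In DN28371_c0 the riser g1 went from 2.88 ± 0.12 to 6.27 ± 0.74 RPKM and the faller g3 from 24.1 ± 2.81 to 13.8 ± 0.50 RPKM (SD, n = 3 each). These were the components with the lowest share of the riser in aluminium libraries, 37.2 ± 5.06% and 31.1 ± 2.86%.

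In the last 4 components a riser led in both groups and the faller was the member with the lowest mean. DN28577_c1 held the most RPKM of all 16. DN28577_c1_g2 had 157, 156 and 153 RPKM in control libraries and 253, 272 and 257 RPKM under aluminium, and DN28577_c1_g1 had 64.2, 63.7 and 60.5 RPKM and then 132, 144 and 138 RPKM. The faller DN28577_c1_g3 had 5.69, 7.60 and 7.42 RPKM and then 3.66, 3.49 and 3.08 RPKM. It was thus a small part of the component in either group, and the risers' share moved by the least of the 16, 2.22 percentage points, from 96.9 ± 0.48% to 99.2 ± 0.09% (SD, n = 3 each).

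DN31331_c0_g1, the longest member at 3826 bases, had 11.1, 9.78 and 10.1 RPKM in control libraries and 20.4, 19.4 and 19.9 RPKM under aluminium. Its faller DN31331_c0_g6 had 6.46, 5.62 and 5.97 RPKM and then 2.85, 2.01 and 2.55 RPKM. In both sisters the lowest library of each group was library 2. In DN31441_c0 the riser g4, the shortest member at 211 bases, went from 17.7 ± 0.82 to 32.2 ± 1.79 RPKM and the faller g1 from 5.59 ± 0.34 to 2.77 ± 0.19 RPKM. In DN37485_c0 the riser g3 went from 14.5 ± 1.66 to 31.2 ± 5.49 RPKM and the faller g1 from 5.50 ± 0.41 to 2.88 ± 0.44 RPKM (SD, n = 3 each). Both members of DN37485_c0 lay near the threshold, with nearest libraries 1.55 and 1.53 times apart.

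**Figure D2:**
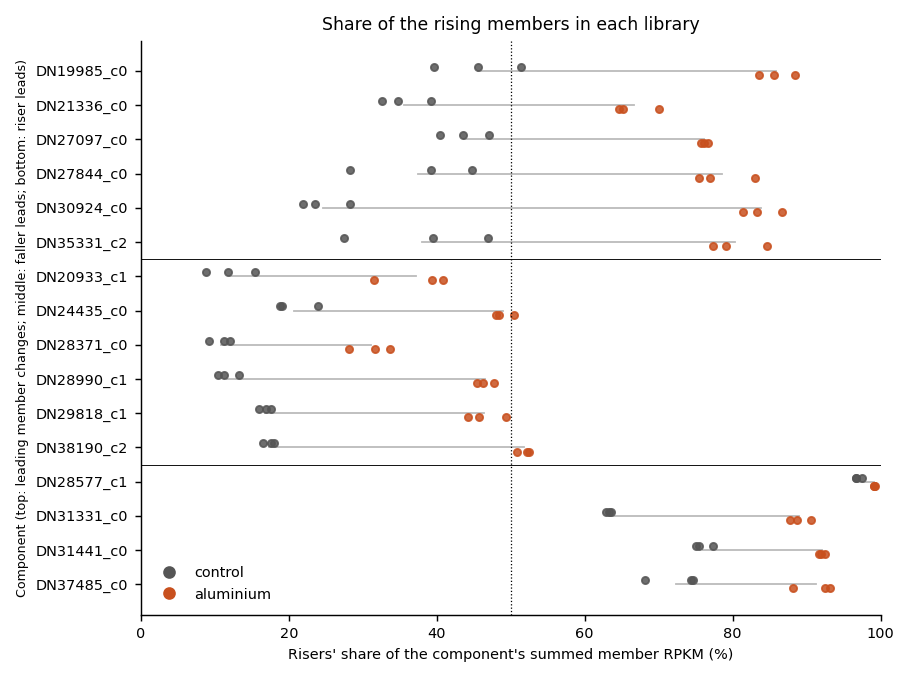
Share of the rising members in the summed RPKM of all members (percent), for each component in each of the 6 libraries; grey points are control and orange points aluminium libraries, the line joins group means, and the dotted line marks equal shares. The risers gained 2.22 to 59.2 percentage points, and the mean share of the 6 components in the top block crosses to the right of the dotted line. The mean share of DN38190_c2, in the middle block, also crosses it, from 17.3% to 51.8% with 2 risers summed, while its faller stays the highest single member.

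The summed level of the members showed no common direction. The sum of member RPKM, compared as mean aluminium over mean control, had a median log2 ratio of 0.01 over the 16 components and ranged from -0.45 in DN20933_c1 to 0.84 in DN28577_c1. It was higher in aluminium in 8 components and lower in 8. In 4 components the change of the sum was under 1.2-fold, and in 4 the groups overlapped. In DN21336_c0, for example, the riser gained 4.87 RPKM and the faller lost 3.81 RPKM, and the sums were 13.3 ± 0.62 and 14.4 ± 1.65 RPKM (SD, n = 3 each). In DN27844_c0 a gain of 4.49 RPKM stood beside a loss of 5.23 RPKM, with sums of 12.02 ± 2.90 and 11.3 ± 0.67 RPKM. The components led by a riser throughout had RPKM sums at 1.37 to 1.78 times the control level, and those led by a faller throughout at 0.734 to 0.865 times. This is largely built in, since the leading member held most of the control sum in these components and the rule requires it to change. With the sums taken in reads scaled by library total alone, so that long sisters weigh more, the median log2 ratio was 0.15 and the direction differed from that of the RPKM sum in 5 of the 16 components. On that scale the log2 ratio was 0.29 in DN28990_c1 and 0.35 in DN29818_c1, both led by a faller, and -0.29 in DN31441_c0, led by a riser. DN27844_c0 had 0.45 and DN27097_c0 -0.57. Whether a component's members rose or fell in sum therefore depends on the scale in these 5.

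**Figure D3:**
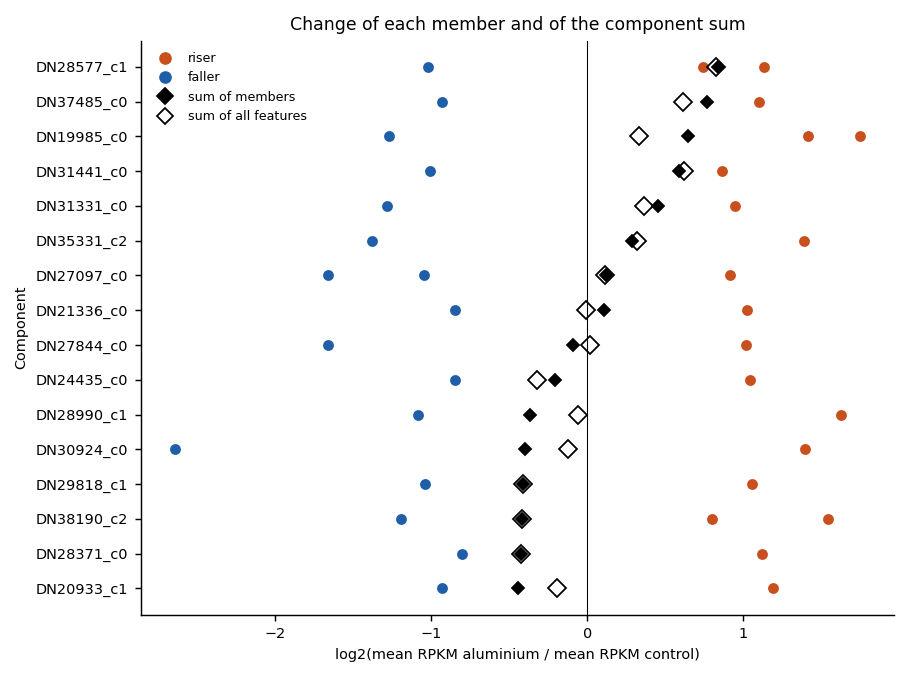
Log2 ratio of mean aluminium to mean control RPKM for each riser (orange), each faller (blue), the sum of the members (filled diamond) and the sum of all features of the component (open diamond), with the 16 components ordered by the sum of members. The member sums lie between -0.45 and 0.84, and the members themselves lie on either side of them.

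The 16 components held 94 features, a median of 5 each (2 to 13), against a median of 4 in the 5117 components with at least 2 features at 5 RPKM. The 58 features that were neither risers nor fallers under the rule included 31 that passed the filter of limma's test. Of these 3 were higher and 6 lower in aluminium at an adjusted p under 0.05 (limma), or 29.0%, beside 18.1% higher and 17.3% lower over all features tested. The rule had removed the features with the clearest changes from these 31, so the lower share is not a result about them. DN20933_c1 and DN28990_c1 show what such features added. In DN28990_c1 the most abundant feature was DN28990_c1_g4, at 35.6 ± 1.59 RPKM in control libraries and 33.5 ± 0.92 RPKM under aluminium, far above the pair that moved oppositely. In DN20933_c1 the sister g2 was at 26.9 ± 1.80 and 28.3 ± 3.56 RPKM, and the sister g1 went from 23.1 ± 1.66 to 15.1 ± 0.31 RPKM (SD, n = 3 each). In 4 components a feature outside the rule led in both groups. Over all features of a component, the leader changed between groups in 4 components rather than 6, and a riser took the lead in 3 of them. The exception was DN30924_c0, where DN30924_c0_g5, outside the rule at 13.8 ± 2.63 RPKM in control and 15.99 ± 2.97 RPKM in treated roots (SD, n = 3 each), had the highest aluminium mean. DN29818_c1 and DN38190_c2 had no feature besides their members.

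The lengths of the sisters, which the rule did not use, differed widely. Lengths worked back from the RPKM values ran from 211 to 3826 bases in risers (median 649) and from 215 to 2098 bases in fallers (median 831). The 24998 features with at least 5 RPKM in either group had a median of 1184 bases, all risers a median of 1015.5 and all fallers of 837.5 bases. In the 20 pairs of a riser and a faller of the same component, the longer sister was a median of 2.2 times the length of the shorter, and in 13 pairs over 2 times. This ratio had a median of 1.82 in 160 pairs of risers from components with risers only and of 1.31 in 44 pairs of fallers from components with fallers only. A component with many risers gives many of the 160 pairs. In 19 pairs of a riser with a faller of the next component in order of identifier, the median was 1.55, with 4 pairs over 2 times. The closest pair was DN38190_c2_g2 and DN38190_c2_g1, of 708 and 741 bases, and the most unequal was DN31441_c0_g4 and DN31441_c0_g1, of 211 and 2098 bases. With the most abundant riser and faller of each component, the riser was the longer in 7 and the faller in 9 components. Members are not replicates, and no test was made over them.

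**Figure D4:**
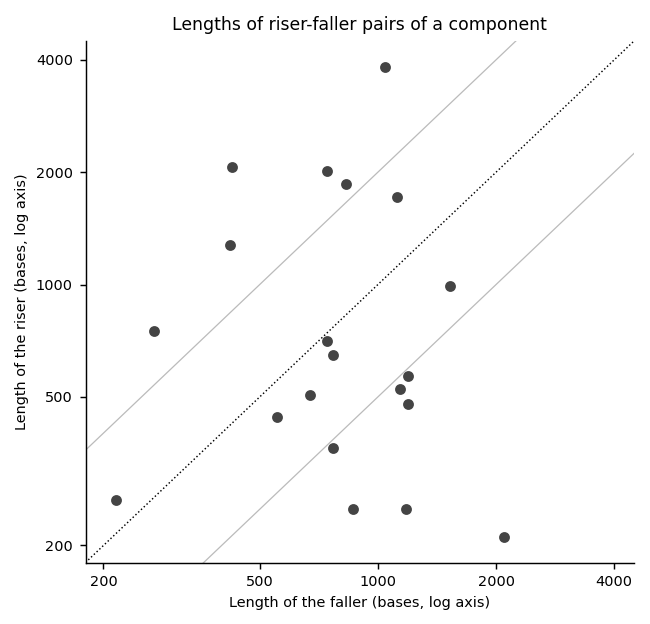
Length of the riser against length of the faller (bases, both axes log) for the 20 riser-faller pairs of the 16 components; the dotted line marks equal length and the grey lines a 2-fold difference. In 13 of the 20 pairs the lengths differ by more than 2 times, with risers and fallers on either side.

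Whether opposite sisters also moved against each other from library to library within a group was described from the deviations of log2(RPKM + 0.5) from the group mean. These leave out the difference between the group means. They are not free of the rule, whose gap between libraries also limits the spread of risers and fallers within a group. Over the 6 libraries, Pearson's r of these deviations had a median of 0.03 in the 20 riser-faller pairs (25th to 75th percentile -0.34 to 0.40), and 9 of the 20 were negative. For comparison each of the 19 risers was paired with 1 faller of the next of the 16 components in order of identifier, a small subset of the possible pairs, and these had a median of 0.24, with 5 of 19 negative. Pairs of like direction had a median of 0.14 for risers (64 of 160 negative) and 0.40 for fallers (13 of 44 negative). The r of a pair ranged from -0.87 in DN37485_c0 to 0.86 for DN38190_c2_g3 with DN38190_c2_g1. With the group means removed, the 6 deviations of a feature have 4 residual degrees of freedom, and an r between 2 features has fewer. Pairs share libraries and some share a feature, and no p is given. The members' coefficient of variation had a median of 8.07% in control and 8.93% in aluminium libraries. Counting noise alone, taken as Poisson, would give 6.34% and 6.53%. The rule favours features of low spread within groups, so these values do not describe the libraries in general.

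**Figure D5:**
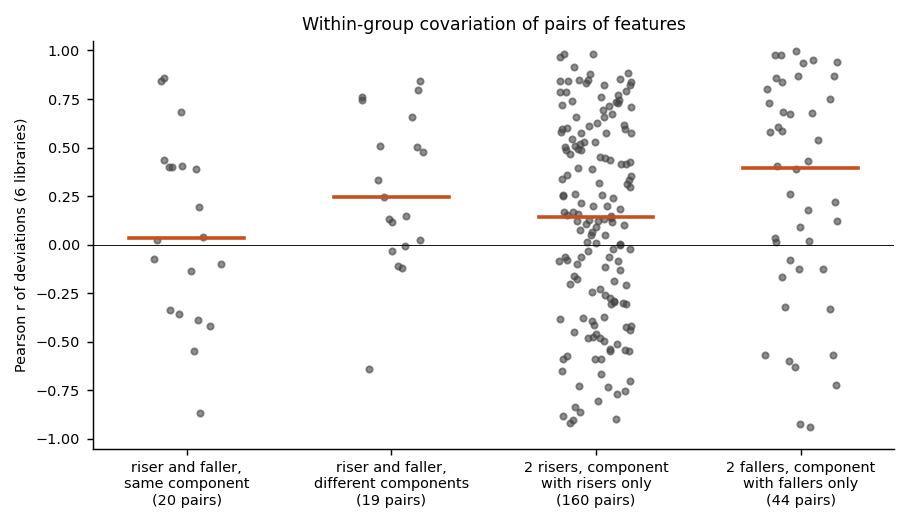
Pearson's r of the deviations from the group mean over the 6 libraries, for pairs of features of 4 kinds; each point is a pair and the orange bar is the median. The medians are 0.03 for opposite sisters, 0.24 for risers and fallers of different components, 0.14 for pairs of risers and 0.40 for pairs of fallers, and the points of each kind spread over most of the range.

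Several features lay close to the limit of the rule. The risers nearest to it were DN27097_c0_g5 and DN37485_c0_g3, whose lowest aluminium library was 1.52 and 1.55 times the highest control library. Just outside, in components that hold a faller, were DN25911_c1_g1, with a ratio of 1.49996, and DN31384_c2_g2, with 1.46. The fallers nearest to the limit were DN37485_c0_g1 and DN28371_c0_g3, with ratios of 1.53 and 1.55. DN24435_c0_g3, at 1.48, and DN21410_c0_g1, at 1.47, fell just short of being fallers in components that hold a riser. DN24435_c0_g3 would have been a second faller of DN24435_c0, from 14.4 ± 1.81 to 8.47 ± 0.62 RPKM (SD, n = 3 each).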

How the data were processed

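The authors deposited 1 table of RPKM values for 108674 features in 6 libraries, the unit being given by its name; per the submitters' processing notes Bowtie2 version 2.2.3 was used, in a role not given in the sources used here. Assembler version, counting tool and filters are not given either. Reads and lengths were worked back from the steps of the RPKM values: 100.0% of features gave whole reads in every library within 1e-06 reads, at the smallest whole length of at least 201 bases. Members had 16 to 4570 reads per library, which limits precision; whether reads are independent molecules is unknown.

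Members follow the rule in the opening of the report. The members and the lists were chosen with earlier results of these data known. As background, log2(RPKM + 0.5) of the 50679 features that reached 1 RPKM in 3 or more libraries was compared with limma version 3.58.1 in R 4.3.3 (eBayes with trend, Benjamini-Hochberg, two-sided), tested on simulated data. Fold changes in the text are ratios of mean RPKM unless stated. Full library values are printed for the components with the largest gaps, the most RPKM, the most members (4 tied), the most equal lengths, and the sum changing least among those with ratios of at least 2 (met by DN38190_c2 alone); the others are given as means. The labels do not say whether replicate numbers pair the libraries, which were treated as unpaired.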

Additional observations from a re-analysis of the deposited data

How the results depend on the processing

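The number of components with opposite members depended on the thresholds. It was 16 as reported, 90 with a ratio of 5 to 4 in place of 1.5, 1 with a ratio of 2, 27 with a minimum mean of 2 RPKM, 5 with 10 RPKM, 28 when the DN number alone defined a component, and 74 when limma's adjusted p under 0.05 with a 1.5-fold ratio of means took the place of the gap between libraries. Quantile normalization gave 17, the 16 among them. Leaving out 1 library gave 18 to 26, since fewer libraries have to be apart; without control library 1 there were 26, and without aluminium library 2 DN28990_c1 was lost. The median log2 ratio of member sums, 0.01, was 0.15 in reads scaled by library total (5 components changed sign) and -0.084 to 0.11 without 1 library, -0.084 without control library 3 and 0.11 without control library 1; its sign is therefore not fixed by these data. The median r of opposite sisters ran from -0.08 to 0.28 without 1 library and was 0.22 with the replicate block, so its order among the kinds of pair is not fixed either. By RPKM, leading members changed in 6 components in each run without 1 library. In reads, some components fall into another kind, as given above. Control and aluminium libraries of the same number did not deviate together (r of -0.15, -0.11 and -0.02 over features). So few libraries cannot show whether they were paired, and the labels do not say. With the replicate block limma called 14753 features in place of 17939, and without 1 library 13449 to 16692. No member changed direction under any alternative run, where the filter of 5 RPKM left 35 members. The gap that the rule requires had fixed this for other pseudocounts, the replicate block and runs without 1 library, so it adds nothing. In size, 2 members moved by more than their spread with a pseudocount of 0.1 and 2 with a pseudocount of 1. The spread meant here is not limma's standard error. With a pseudocount of 0.1 the log2 change of DN30924_c0_g3, not among the 2, went from -2.41 to -2.58, where the standard error was 0.147. No batch or day is labelled, so handling that differed between the groups and aluminium cannot be told apart.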
